A study of Mus musculus with 6 samples.

Results

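The guide strands of 2 miRNA clusters, miR-106b-25 and miR-106a-363, were followed in mouse CD8+ T cells primed by different antigen-presenting cells. Members were the mouse-named guide assays mmu-miR-106b, mmu-miR-93, mmu-miR-25, mmu-miR-106a, mmu-mir-18b, mmu-miR-20b and mmu-miR-363, found by name in the deposited tables. All 7 were present among 345 miRNA assays with a normalized value, 3 from miR-106b-25 and 4 from miR-106a-363. All 6 samples were pMel-1 T cells, from mice transgenic for a T cell receptor that recognises the melanoma antigen gp100, and had been primed in culture for 3 days. In the DC-primed group (3 samples) the T cells were activated by bone marrow-derived dendritic cells matured with lipopolysaccharide. In the B cell-primed group (3 samples) they were activated by splenic B cells carrying the gp100 peptide hgp100(25-33), and these served as the control; a peptide is named in the labels for the B cells only. There were 3 rounds, with 1 sample of either group in each. The labels do not say that rounds were separate animals or that the T cells were sorted away from the priming cells, so the samples could hold RNA of both. The p-values below measure only the spread between these samples, which may be technical.

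A miRNA binds the messages it represses mainly through its seed, the short stretch near its 5′ end, so miRNAs with the same seed share many targets. The miR-106b-25 and miR-106a-363 clusters are the paralogs of the miR-17/miR-92a cluster, which is known for promoting proliferation and survival of lymphocytes. The miR-106b-25 hairpins lie in an intron of Mcm7, which encodes a subunit of the replicative helicase, and are made together with that message in dividing cells. The miR-106a-363 cluster lies on the X chromosome, is usually weakly expressed in adult tissue, and is known as a site of retroviral insertion in mouse T cell lymphomas.

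All 7 members were matched by name to RefSeq's miRNA table for build GRCm38.p6. The 3 hairpins of miR-106b-25 lie within 498 bases on the minus strand, at chr5:138165321-138165818. The 4 member hairpins of miR-106a-363 lie within 875 bases on the minus strand, at chrX:52741693-52742567. The mature sequences are shown because the results turn on how closely the members resemble each other and the miR-17/miR-92a guides; the seed (bases 2 to 8) is in capitals.
miR-106b: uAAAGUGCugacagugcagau
miR-93: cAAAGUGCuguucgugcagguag
miR-106a: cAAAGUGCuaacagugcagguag
miR-20b: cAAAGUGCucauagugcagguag
miR-17: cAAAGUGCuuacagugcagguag
miR-20a: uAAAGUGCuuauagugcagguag
miR-18b: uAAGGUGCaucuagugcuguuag
miR-18a: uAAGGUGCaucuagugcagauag
miR-25: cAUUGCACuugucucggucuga
miR-363: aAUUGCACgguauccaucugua
miR-92a: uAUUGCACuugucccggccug

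The members fall into 3 seed groups. miR-106b, miR-93, miR-106a and miR-20b carry the seed AAAGUGC of miR-17 and miR-20a, miR-25 and miR-363 carry the seed AUUGCAC of miR-92a, and miR-18b carries the seed AAGGUGC of miR-18a. Counted from the 5′ end, miR-106a differs from miR-17 by U10A alone. miR-20b differs from miR-20a by U1C and U10C, and miR-18b from miR-18a by A18U and A20U. miR-93 differs from miR-17 at 4 neighbouring bases, U10G, A11U, C12U and A13C. miR-25 and miR-363 share their seed but differed at 13 of 22 bases. The miR-106a-363 cluster also encodes copies of miR-19b and miR-92a whose mature sequences are identical to those of the miR-17/miR-92a cluster, so a PCR assay for either reads both clusters, and neither was counted as a member.

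Levels are given as minus dCt on the log2 scale, where dCt is the threshold cycle (Ct) less 1 number per sample set by the authors, so a higher value means more miRNA and 1 unit is a 2-fold difference. An assay was tested when its Ct was below 35 in all 6 samples, which held for 274 assays and for 6 of the 7 members. DC-primed sample 3 had the latest amplification, with a mean Ct of 30.5 over tested assays against 26.3 to 28.4 in the other samples. The general T cell and leukocyte miRNAs miR-150, miR-155, miR-142-5p, miR-146a and miR-181a were below Ct 35 in every sample. miR-142-3p had no Ct in DC-primed sample 3, where the authors filled in a value. No miRNA on the panel marks CD8+ T cells alone.

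The comparison between priming cells asked which miRNAs differ according to the cell that activated the T cells. All 6 tested members were lower on average in DC-primed cells, where 46.7% of all tested assays were. Their median difference was -1.22, against 0.07 over all 274 tested assays. None passed the test: limma called 0 of the 6 members and 0 of 274 assays (0%) at an adjusted p under 0.05. At an unadjusted p under 0.05 limma had 24 of 274 assays (8.76%), of which 20 were lower in DC-primed cells (7.3%); miR-363 and miR-106a were among the 20. A fit blocked by round called 0 of 274 assays too (0%), with an unadjusted p under 0.05 for miR-363 and miR-106a again, beside 7.66% of assays in that direction. In 4 members, miR-25, miR-106a, miR-20b and miR-363, the DC-primed sample was the lower one in all 3 rounds, as in 12.8% of tested assays. For a simulated difference of 2 on the same scale, limma called 15.5% of changed assays, and for one of 4 it called 87.5%. The simulated noise was independent between samples and larger differences were simulated alongside, so these shares may be too high for the data here. In bulk samples, fewer cells of a type and less RNA per cell cannot be told apart.

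miR-25, the seed relative of miR-92a in the Mcm7 cluster, stood at 2.79, 1.67 and 0.36 in DC-primed samples 1, 2 and 3. After B cell priming it stood at 4.003, 3.40 and 1.85. Both groups were lowest in round 3 and overlapped, but within each round the DC-primed sample was lower by a similar amount. The differences of level were -1.21, -1.73 and -1.49 in rounds 1, 2 and 3. Their mean was -1.48 ± 0.88 (SE from limma, 95% interval -3.49 to 0.53), that is 2.79-fold lower in DC-primed cells, with an adjusted p from limma of 0.72 and of 0.479 with the round as a block, and it was -0.86 without DC-primed sample 3. In the authors' deposited table the paired test over rounds gave miR-25 a p of 0.0103, the lowest of the 7 members, where 18 of 345 assays had a p under 0.05 (5.22%), 13 of them lower (3.77%). Adjusted over that table by Benjamini-Hochberg, no assay was under 0.05, and the smallest value was 0.0877.

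miR-93, the middle hairpin of the same cluster and a member of the miR-17 seed group, stood at 1.77, 0.02 and -0.25 in the DC-primed samples. After B cell priming it stood at 1.71, 1.45 and 1.15. DC-primed sample 1 was the highest of all 6, and the other 2 DC-primed samples were the lowest. The difference was 0.06 in round 1, -1.43 in round 2 and -1.40 in round 3. The mean of -0.93 ± 0.75 (SE from limma, 95% interval -2.63 to 0.77) had an adjusted p of 0.961. Without DC-primed sample 1 it was -1.56 (adjusted p from limma 0.198), and without DC-primed sample 3 it was -0.54.

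miR-106b, the first hairpin of the cluster and also of the miR-17 seed group, gave 1 value that stands apart. It stood at 3.57 and 2.71 in DC-primed samples 2 and 3 and, after B cell priming, at 1.88, 3.59 and 3.62. In DC-primed sample 1 it was listed at -16.3, from a Ct of 42.5 where the latest of the other 5 samples was at 27.8. Only miR-106b, of all assays, had a Ct in that sample over 10 cycles later than its median in the other 5, and no assay had a later Ct there. Its cluster neighbours showed no such gap in the same sample, where miR-25 and miR-93 had a Ct of 23.4 and 24.4. That sample had the earliest mean Ct over tested assays, at 26.3, so early Ct alone says little. In scaled level miR-25 and miR-93 stood at 2.79 and 1.77 there, their highest DC-primed values. The level of miR-25 still differed by -1.21 from that of B cell-primed sample 1. The Ct of 42.5 kept miR-106b out of the test. The deposited mean difference of -6.38 (0.012-fold in the authors' deposited table, with a paired p of 0.394) rests on this value. With DC-primed sample 1 left out of the fit and of the detection filter, a choice made after seeing the value, the difference was 0.10 ± 0.75 (SE from limma, 95% interval -1.67 to 1.88, adjusted p = 0.981). Within rounds 2 and 3 it was -0.02 and -0.91.

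**Figure D1:**
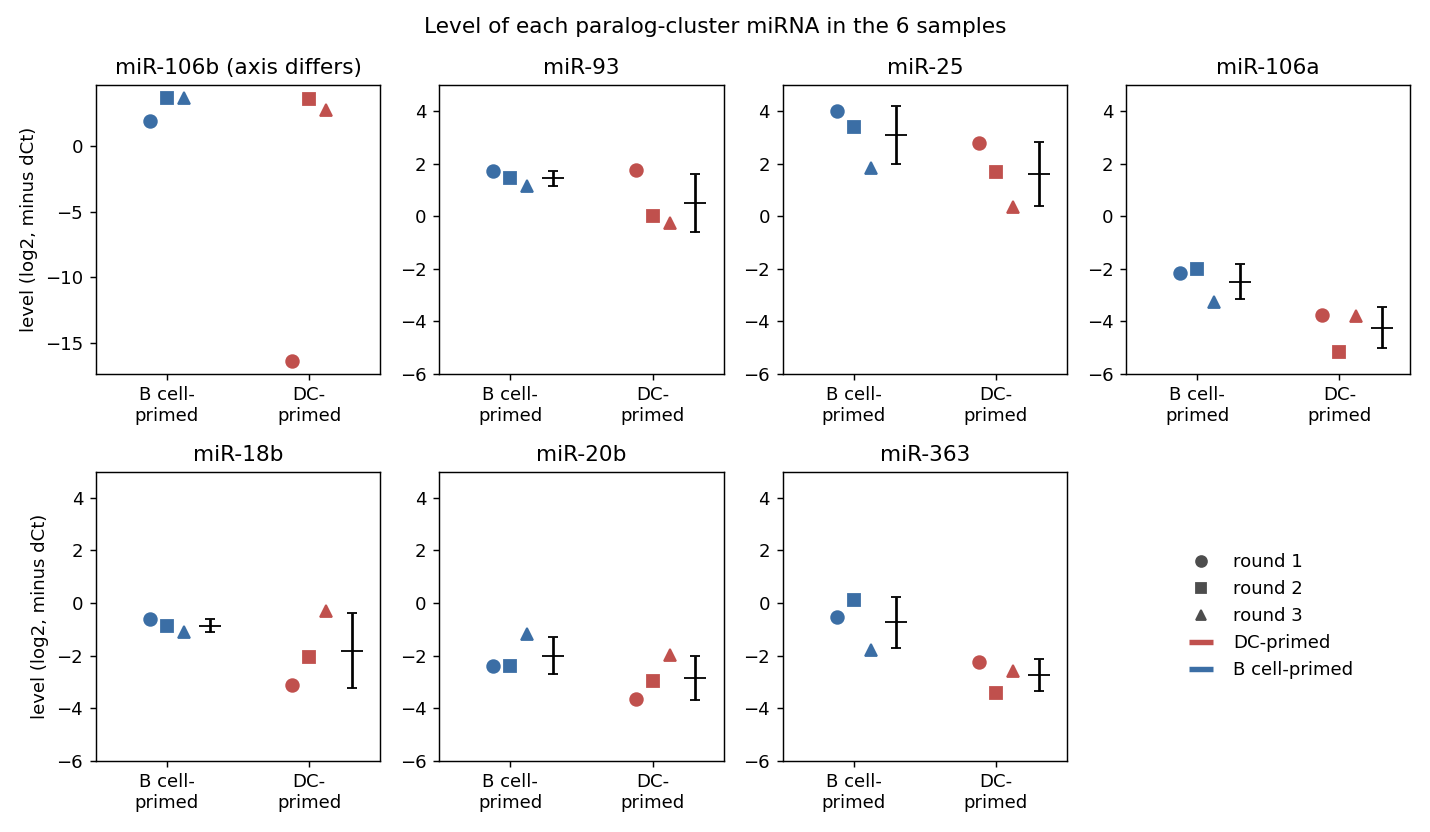
Level (minus dCt, log2, vertical axis) of each of the 7 members in the 3 B cell-primed (blue) and 3 DC-primed (red) samples, with round shown by symbol and mean ± SD as a black bar; miR-106b has its own axis and no mean. The groups do not overlap for miR-106a and miR-363, the miR-25 points shift down together in each round, and 1 miR-106b point lies at -16.3.

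miR-363, the last hairpin of the X-linked cluster and a seed relative of miR-25 and miR-92a, had the largest difference among the tested members. It stood at -2.24, -3.43 and -2.57 in DC-primed samples 1, 2 and 3, and at -0.55, 0.13 and -1.78 after B cell priming. Every DC-primed sample lay below every B cell-primed one, as in 22 of 274 tested assays (8.03%); in either direction the groups were apart in 37 (13.5%). The difference was -1.69, -3.56 and -0.79 in rounds 1, 2 and 3, so its size varied while its sign did not. The mean of -2.02 ± 0.75 (SE from limma, 95% interval -3.72 to -0.31) is 4.05-fold lower in DC-primed cells. It had an adjusted p from limma of 0.439, and of 0.294 with the round as a block. In the authors' deposited table its paired p was 0.132. By size it was the 19th most negative of the 274 differences.

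miR-106a, the first hairpin of the cluster and miR-17 but for 1 base, followed the same course. It stood at -3.78, -5.15 and -3.78 in the DC-primed samples and at -2.18, -2.02 and -3.27 after B cell priming, again without overlap. The differences were -1.60, -3.13 and -0.51 in rounds 1, 2 and 3. The mean was -1.75 ± 0.72 (SE from limma, 95% interval -3.40 to -0.10), 3.36-fold lower, with an adjusted p of 0.532. It was read late, at a Ct of 34.2 in DC-primed sample 3 and 33.6 in DC-primed sample 2, close to the limit of 35.

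miR-20b, which carries the miR-17 seed, differed less but evenly. It stood at -3.65, -2.98 and -1.97 in the DC-primed samples and at -2.42, -2.42 and -1.17 after B cell priming. The groups overlapped because DC-primed sample 3 lay above B cell-primed samples 1 and 2. The differences were -1.23, -0.56 and -0.80 in rounds 1, 2 and 3. The mean was -0.87 ± 0.74 (SE from limma, 95% interval -2.55 to 0.82, adjusted p = 0.961); leaving out DC-primed sample 1 gave -0.48, leaving out DC-primed sample 3 gave -1.31 and leaving out B cell-primed sample 3 gave -0.45. In the authors' deposited table the paired p of miR-20b was 0.047, so miR-25 and miR-20b were the 2 members under 0.05 there.

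miR-18b, a seed relative of miR-18a, was the least even of the tested members. It stood at -3.12, -2.05 and -0.29 in the DC-primed samples and at -0.61, -0.87 and -1.12 after B cell priming. The B cell-primed values lay close together, while the DC-primed ones ranged from the lowest to the highest of all 6. The differences were -2.51 and -1.18 in rounds 1 and 2 and 0.83 in round 3. The mean was -0.96 ± 0.83 (SE from limma, 95% interval -2.84 to 0.92, adjusted p = 0.961), and it was -0.31 without DC-primed sample 1 and -1.72 without DC-primed sample 3.

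**Figure D2:**
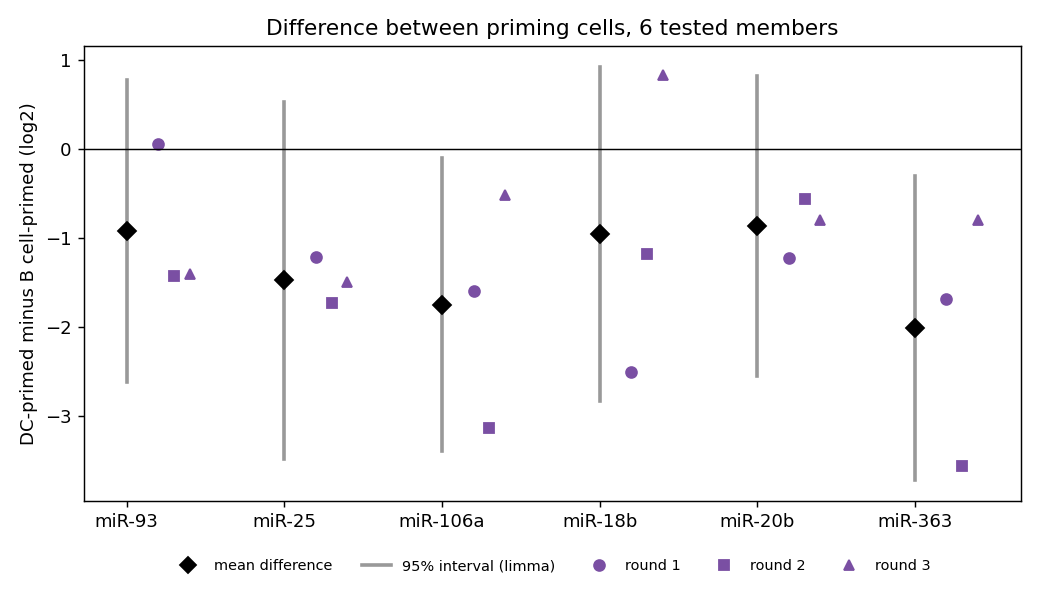
Difference of level, DC-primed minus B cell-primed (log2, vertical axis) for the 6 tested members: black diamonds are means over 3 samples a group with limma's 95% interval in grey, and purple symbols are the 3 rounds. All 6 means lie below 0, the rounds are closest together for miR-25 and miR-20b, and 1 round lies above 0 for miR-93 and for miR-18b.

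A ratio of 2 assays in 1 sample does not change with the per-sample number that was subtracted, so ratios between members were compared as differences of log2 level, 9 of them chosen from the cluster map and the seeds and 6 more with miR-18b and miR-106b added after seeing the tables. None of the 9 passed (two-sided exact permutation over 3 samples a group, adjusted p = 0.563 to 0.7 over 9 ratios; the smallest unadjusted p possible is 0.1). The ratio of miR-106a over miR-363, the outer hairpins of the X-linked cluster, was the steadiest. It stood at -1.54, -1.72 and -1.21 in the DC-primed and at -1.63, -2.15 and -1.49 in the B cell-primed samples. Its SD over the 6 samples was 0.31, where the median over all pairs of tested assays was 1.55 and 0.286% of the pairs had a smaller one. The difference between the groups was 0.27 (exact permutation p = 0.5), and leaving out DC-primed sample 3 gave 0.13 and B cell-primed sample 2 gave 0.07.

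The inner hairpins of the X-linked cluster did not keep such a steady ratio to the outer ones. The ratio of miR-106a over miR-20b ran from -2.17 to 0.40, with an SD of 1.22, and that of miR-20b over miR-363 from -2.55 to 0.61, with an SD of 1.42. The ratio of miR-18b over miR-20b, which neighbour each other, had an SD of 0.71 and ran from 0.05 to 1.81. In the Mcm7 cluster, the ratio of miR-93 over miR-25 stood at -1.02, -1.65 and -0.61 in the DC-primed and at -2.29, -1.95 and -0.70 after B cell priming. It was higher in the DC-primed sample of every round, by 1.27, 0.30 and 0.09, with a mean of 0.55 (exact permutation p = 0.4). Leaving out B cell-primed sample 1 gave 0.23 and B cell-primed sample 3 gave 1.03, while leaving out DC-primed sample 3 gave 0.31 and DC-primed sample 2 gave 0.83. miR-106b over miR-93 was 3.55 and 2.96 in DC-primed samples 2 and 3, against 0.17, 2.14 and 2.47 after B cell priming, and -18.1 in DC-primed sample 1.

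Set against the miR-17/miR-92a guides with the same seed, miR-93 over miR-17 was the only one of the 9 ratios whose groups did not overlap. It stood at -1.27, -0.93 and -1.05 in the DC-primed and at -1.51, -3.08 and -2.27 in the B cell-primed ones. The mean difference of 1.20 was in the direction of DC-primed cells in all 3 rounds (exact permutation p = 0.1, adjusted p = 0.563 over 9 ratios). miR-106a over miR-17, which differ at 1 base, stood at -6.82, -6.10 and -4.58 in the DC-primed and at -5.40, -6.55 and -6.69 in the B cell-primed samples. In every sample the miR-106a assay read later than the miR-17 assay. How much of its signal comes from miR-17 was not tested, and the efficiency of the primers is not given in the sources used here. miR-20b over miR-20a differed by 1.60 between the groups, from -7.30, -4.08 and -2.70 in the DC-primed and -6.29, -7.44 and -5.15 after B cell priming (exact permutation p = 0.3). Leaving out DC-primed sample 3 gave 0.60, leaving out DC-primed sample 1 gave 2.90, and leaving out B cell-primed sample 2 gave 1.03.

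Ratios to miR-92a, whose mature form the X-linked and the miR-17/miR-92a clusters share, scattered more over the 6 samples than the other 7 of the 9 ratios, with SDs of 3.44 for miR-25 and 3.07 for miR-363. miR-25 over miR-92a ran from -5.68 to 3.13 and miR-363 over miR-92a from -8.61 to -1.41. miR-92a itself differed by 0.80 ± 1.49 (SE from limma, adjusted p = 0.986), and stood at 6.04 and 5.80 in the 2 samples of round 3 against 0.87 to 2.68 in the other 4. Both ratios were nonetheless lower in the DC-primed sample of every round, at -2.24, -2.87 and -1.73 in rounds 1, 2 and 3 for miR-25. The mean differences were -2.28 and -2.82 (exact permutation p = 0.5 and 0.3). They rested much on single samples: for miR-25, leaving out DC-primed sample 3 gave -0.41 and DC-primed sample 1 gave -3.69, while leaving out B cell-primed sample 1 gave -0.89 and B cell-primed sample 3 gave -4.43. For miR-363, leaving out DC-primed sample 3 gave -1.66, B cell-primed sample 1 or 2 gave -1.79 and B cell-primed sample 3 gave -4.87.

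**Figure D3:**
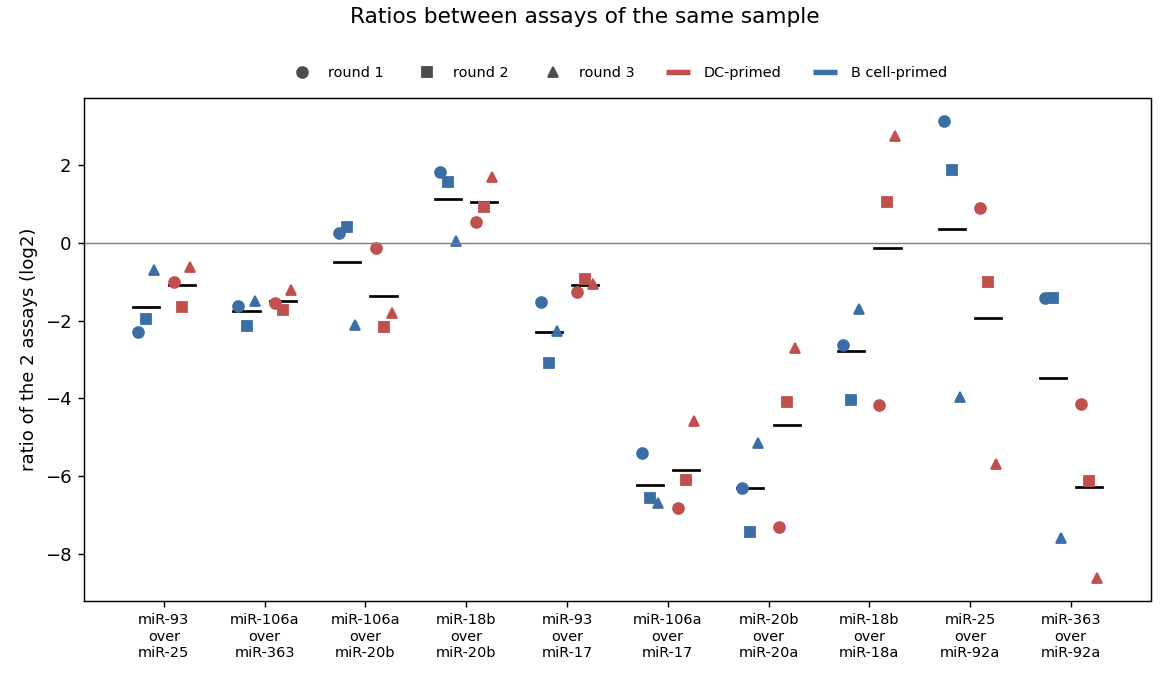
Log2 ratio of 2 assays in the same sample (vertical axis) for 10 of the 15 ratios, in B cell-primed (blue) and DC-primed (red) samples with round by symbol and the group mean as a bar. miR-106a over miR-363 stays between -2.15 and -1.21 in all 6 samples, while miR-25 over miR-92a spreads from -5.68 to 3.13.

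miR-25 and miR-93 of the Mcm7 cluster were read at higher mean levels than the 4 members of the X-linked cluster in both groups, and so was miR-106b in B cell-primed cells. In B cell-primed cells the order of mean levels was miR-25 at 3.09 ± 1.11, miR-106b at 3.03 ± 1.00, miR-93 at 1.44 ± 0.28, miR-363 at -0.73 ± 0.97, miR-18b at -0.86 ± 0.26, miR-20b at -2.00 ± 0.72 and miR-106a at -2.49 ± 0.68 (SD, n = 3 each). The samples of miR-25 and miR-106b overlapped, as did those of miR-363 and miR-18b and those of miR-20b and miR-106a. In DC-primed cells miR-25 at 1.61 ± 1.22 and miR-93 at 0.51 ± 1.10 overlapped with each other and lay above miR-18b, miR-363, miR-20b and miR-106a. miR-106a was last there too, at -4.24 ± 0.79. miR-106b has no settled place in the DC-primed order, with samples at 3.57 and 2.71 and 1 at -16.3. Among the 274 tested assays, miR-25 ranked 26th, 41st and 61st from the top in the B cell-primed samples and 60th, 63rd and 96th in the DC-primed samples. miR-106a ranked between 199th and 270th. These orders compare assays of similar length with different primers, so they describe signal rather than molecules.

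Within the summed signal of the 6 assays with the miR-17 seed, miR-17 and miR-20a together with miR-106b and miR-93 held nearly all. miR-93 held 3.86% to 10.5% in the B cell-primed and 5.92% to 14.0% in the DC-primed samples, and miR-106b 11.8% to 29.6% after B cell priming, 69.4% and 58.9% in DC-primed samples 2 and 3 and 4.99e-05% in DC-primed sample 1. The 14.0% of miR-93 belongs to that last sample. With miR-106b left out of the sum, a choice made after seeing the value, miR-93 held 4.65% to 11.8% after B cell priming and 14.0% to 19.3% after DC priming. In DC-primed samples 2 and 3 miR-17 and miR-20a were at their lowest, at 0.95 and 0.80 for miR-17 and 1.10 and 0.73 for miR-20a. Of the full sum, miR-20b held at most 2.30% and miR-106a at most 0.705% in any sample. Among the 5 assays with the miR-25 seed, miR-25 held 1.37% to 21.6%, miR-363 at most 1.83%, miR-92b, a miRNA from another locus, 28.3% to 84.1% and miR-92a 1.56% to 70.1%, the last in DC-primed sample 3, where miR-92a held the most. These shares assume that all primers amplify equally.

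The miR-17/miR-92a guides, which were set beside their paralogs from a list, lay mostly in the same direction on average. Of the 6 tested, 5 were lower and 1 was higher after DC priming, where 46.7% of all tested assays were lower. The median difference was -2.30, and limma called 0 of them at an adjusted p under 0.05. miR-17 differed by -2.13 ± 0.82, miR-20a by -2.47 ± 0.90, miR-18a by -3.62 ± 1.22, miR-19a by -1.59 ± 1.06 and miR-19b by -2.92 ± 1.45 (SE from limma). Each of these was lower in rounds 2 and 3. In round 1 miR-19a and miR-19b were higher in the DC-primed sample, by 1.18 and 2.13. There miR-17, miR-20a and miR-18a differed by -0.18, -0.22 and -0.96. miR-92b, the remaining relative of miR-25, was lower in DC-primed cells without overlap, at -1.79 ± 0.69 (SE from limma, adjusted p = 0.463). miR-32, of the same seed, was above Ct 35 in DC-primed sample 3, was not tested and differed by -0.12. Of 11 other miRNAs on a list drawn up for cycling or activated T cells, 9 were tested, with 0 called. Of these 9, 5 were higher and 4 lower, with a median of 0.37, where 46.7% of all tested assays were lower. The tested ones ran from miR-182 at -2.19 to miR-21 at 3.19. The untested ones, miR-183 and miR-96, were above Ct 35 in DC-primed sample 3 and were both lower, by -2.86 and -1.76.

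Assays named for the other strands of the member hairpins were 3 mouse-named and 2 human-named ones. Whether the human-named ones read the mouse strands was not tested. miR-106b*, made from the same hairpin as miR-106b, stood at -1.87, -0.33 and 1.37 in the DC-primed and at -0.55, 0.46 and 0.86 in the B cell-primed samples. In DC-primed sample 1 its Ct was 28.1 and its level the lowest of the 6 samples, though far above the -16.3 of miR-106b there. The difference of miR-106b* was -0.54 ± 0.92 (SE from limma, adjusted p = 0.986). miR-93* was lower in all DC-primed samples, at -3.10, -4.59 and -8.29 against -2.50, -1.77 and -2.13, but had a Ct of 38.8 in DC-primed sample 3 and was not tested. miR-20b* missed the limit with a Ct of 35.04 in that sample and differed by -1.07. The human-named assays for miR-20b* and miR-106a* differed by 1.73 ± 1.10 and 1.04 ± 1.10 (SE from limma, adjusted p = 0.772 and 0.971). The mouse-named and human-named miR-20b* assays thus had opposite signs. The human-named one read earlier in every sample, at a Ct of 25.94 against 32.35 in DC-primed sample 1, so they may not read the same strand. No human-named assay of a member's guide strand was among the 345.

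The assays most like each member over the 6 samples were sought among 240 other tested mouse-named assays by Pearson correlation of level, a description over samples that share their scaling. miR-106a and miR-363 were each other's nearest, at 0.98, followed by miR-17* at 0.91 and miR-182 at 0.90 for miR-106a, and by miR-182 at 0.94 and miR-18a at 0.90 for miR-363. miR-25 was nearest to miR-7a at 0.97, miR-15b at 0.96 and the miR-128a/128b assay at 0.93. miR-93 was nearest to miR-720 at 0.94, miR-27b at 0.94 and miR-18a at 0.92. miR-18b was nearest to miR-379 at 0.98, miR-377 at 0.94 and miR-546 at 0.93, and miR-20b to miR-15a* at 0.93, miR-495 at 0.89 and miR-696 at 0.88. miR-25 and miR-93 correlated at 0.88, miR-18b and miR-20b at 0.74, and miR-106a with miR-20b at only 0.29.

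How far the members lay below 0 depended on the scaling. Without normalization all 6 were lower, from -2.20 for miR-20b to -3.35 for miR-363, where 91.2% of tested assays were lower and their median was -1.26. Raw Ct was later in the DC-primed sample of all 3 rounds for 5 of the 6, as for 42% of tested assays. Scaled to 2 small control RNAs, RNY3 and snoRD47, miR-363 stood at -0.79, miR-106a at -0.52 and miR-25 at -0.25, while miR-93, miR-18b and miR-20b turned positive at 0.30, 0.27 and 0.36. With that scaling 13.1% of assays were lower and the median was 1.30. The mean Ct of these control RNAs was itself later in the DC-primed sample of each round, at 22.8, 27.6 and 26.2 against 21.7, 23.7 and 23.5. All 6 members were lower after quantile normalization, where 46% of assays were, and relative to the sample median, where 48.2% were. The members were below the median of all tested assays under each of the 5 scalings. Quantile normalization aside, the scalings differ only by 1 number per sample, so the distance to that median could not change between them. The DC-primed samples of miR-106a and miR-363 all lay below the B cell-primed ones after quantile normalization and relative to the sample median, as for 8.03% of assays under both. Those of miR-25 did so too after quantile normalization. Scaled to RNY3 and snoRD47 no tested member was apart, against 0.73% of assays that were lower without overlap. In raw Ct miR-20b and miR-18b were apart and miR-106a and miR-363 were not, against 9.49% of assays.

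**Figure D4:**
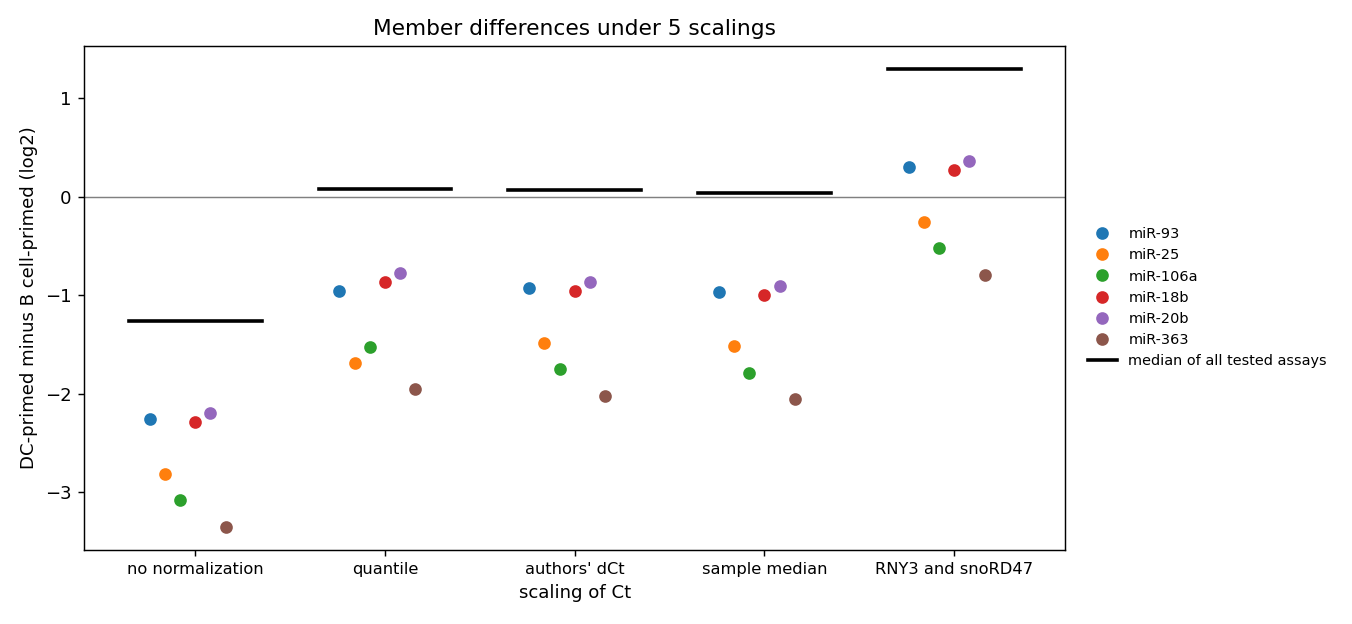
Mean difference, DC-primed minus B cell-primed (log2, vertical axis) of the 6 tested members (coloured points) under 5 scalings of Ct, with the median of the 274 tested assays as a black line. The members lie below the line under every scaling, by a distance that only quantile normalization could change. Relative to RNY3 and snoRD47, 3 of them lie above 0.

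Markers of other cells moved with the groups in part. Of 6 miRNAs known from myeloid and dendritic cells, 5 were on the panel and 3 were tested, all higher in DC-primed cells (median difference 2.53), with 0 called by limma. The summed level of the 5 stood at 7.26, 4.63 and 1.04 in DC-primed samples 1, 2 and 3 and between 0.69 and 1.70 after B cell priming. miR-223, abundant in myeloid cells, stood at 5.36 and 1.23 in DC-primed samples 1 and 2 and at -6.53 in DC-primed sample 3, below the B cell-primed range of -5.79 to -5.04. The summed myeloid level of DC-primed sample 3 lay within the B cell-primed range, but this sample also had the latest amplification. Of the 6 tested members, 5, 6 and 5 were lower in the DC-primed sample of rounds 1, 2 and 3. Their median difference was -1.42, -1.58 and -0.80 in these rounds, against -0.27, 0.45 and -0.03 over all tested assays. In round 3, 51.8% of tested assays were lower in the DC-primed sample. Of the myeloid list, miR-22 and miR-99b were higher in DC-primed sample 3 than in B cell-primed sample 3, at 0.18 against -0.84 and -2.66 against -3.40. The rest of the 5 were lower there: miR-223 at -6.53 against -5.04, miR-125a-5p at -0.39 against -0.19 and miR-146b at -8.31 against -4.22. Each round is 1 pair of samples, and the part of priming cells in the members' differences was not tested. All 5 tested miRNAs of the 6 on the leukocyte and lymphocyte list were higher on average in DC-primed cells, with 0 called by limma. The summed level of the 6 ran from 8.09 to 8.87 in DC-primed and from 6.09 to 7.50 in B cell-primed samples. The 8.09 was from DC-primed sample 3, where the filled-in miR-142-3p value was 7.99 and the highest measured one, of miR-150, was 3.32. The groups were thus apart only through a value that was not measured. Of 2 panel miRNAs linked to B cells, miR-150 and miR-148a, both shared with T cells, the summed level ran from 3.79 to 5.58 in DC-primed and from 3.37 to 3.97 in B cell-primed samples. The summed levels of 3 erythroid miRNAs ran from -0.06 to 2.40 and from 1.22 to 2.09, of 3 stromal and endothelial miRNAs from -2.59 to -0.88 and from -1.53 to -1.09, and of miR-1 and miR-9 of muscle and brain from -3.63 to 1.48 and from -4.05 to -2.91.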

How the data were processed

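MicroRNAs were measured by SYBR Green real-time PCR after poly(A) tailing and reverse transcription with a universal tag, with 1 forward primer per miRNA, per the labels' protocols. The authors deposited raw Ct, treated here as a score, and dCt, a log2 value made as Ct minus 1 number per sample, the geometric mean of Ct per the file headers. They also deposited a p-value from a two-tailed paired test and a fold change, the ratio of DC-primed to B cell-primed, per the file headers. File names swap the Ct and dCt tables; headers and values settle which is which. Member dCt and Ct agree within 0.02 cycles once that number is taken off, and none of the 10 filled-in values belongs to a member. That number lay 0.727 to 1.047 cycles below the geometric mean of Ct computed here over the miRNA assays, so the headers' description was not reproduced. The instrument is not given in the sources used here. Fold values assume doubling per cycle.

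Minus dCt was compared with limma 3.58.1 in R 4.3.3 (lmFit, eBayes; two-sided, without trend or block), as DC-primed minus B cell-primed, over the 274 assays with Ct below 35 in all 6 samples (71 were left out), with Benjamini-Hochberg adjustment over all of them; the fit was tested on simulated data. SE is limma's moderated one and SD is over samples. Ratios used exact permutation (scipy 1.17.1). Figures used matplotlib 3.10.9. Round numbers stand in the titles, and rounds were taken to pair the samples in the block alternative. After subtracting group means, the 2 samples of a round correlated at 0.16, 0.14 and 0.46. Correlations between samples of different rounds are not given here, so these values alone do not show pairing. Sequences are RefSeq's (GRCm38.p6), matched by name.

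The members, lists and tests were chosen with earlier results of these data known. Named assays were the members, the lists of paralogs, seed relatives, other strands, activation and cell type markers, and the 3 mouse-named assays nearest each member. The members with a planned test were 5; miR-18b and miR-106b, also found by the rule, were added once the tables were read. Alternatives were 4 scalings, 3 detection settings, Ct in place of dCt, filled values left out, the round as a block, the authors' paired test and leaving out each sample.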

Additional observations from a re-analysis of the deposited data

How the results depend on the processing

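The 6 member differences kept their sign under every alternative run except 1 scaling: relative to RNY3 and snoRD47, miR-93 was 0.30, miR-18b 0.27 and miR-20b 0.36. No member was called by limma under any alternative, and with the round as a replicate block the differences were the same, with adjusted p from 0.294 for miR-363 to 0.834 for miR-20b. The block changed no call. Leaving out 1 sample at a time, the difference ran from -1.56 to -0.54 for miR-93, -2.10 to -0.86 for miR-25, -2.14 to -1.29 for miR-106a, -1.72 to -0.31 for miR-18b, -1.31 to -0.45 for miR-20b and -2.54 to -1.58 for miR-363. miR-106a and miR-363 are not below Ct 32 in all samples, nor is miR-20b, and could not be tested at that limit. The number of assays called was 0 to 2, the 2 without DC-primed sample 3. Assays whose groups did not overlap numbered 37 of 274 (13.5%). They were 21 of 175 (12%) with a Ct limit of 32, 45 of 314 with a limit of 38, 50 of 345 with no limit, and 26, 30, 34 and 38 of 274 in raw Ct, relative to RNY3 and snoRD47, relative to the sample median and after quantile normalization.

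The differences of ratios often moved by over 1.5 times when 1 sample was left out, and kept their sign except in these cases. miR-106a over miR-17 was -0.25 without DC-primed sample 3 and ran from -0.25 to 0.87. miR-18b over miR-20b ran from -0.63 to 0.25: it was 0.17 when the DC-primed sample of round 1 was left out, and 0.25 and 0.12 when the B cell-primed sample of round 1 or 2 was. miR-106b over miR-93 ran from -9.16 to 1.66 and over miR-25 from -8.56 to 2.18, both positive only without DC-primed sample 1. With 3 samples a group no permutation p can fall below 0.1, and a signed exchange over 3 rounds not below 0.25. Among tested members miR-106a had the latest Ct, 34.2, nearest to the limit of 35.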
